A study of Mus musculus with 6 samples.

Results

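The genes described here are 38 mouse genes of mitochondrial fatty acid oxidation and its regulators, chosen by name from the 55450 genes of the kidney count table. They were taken from a list of names drawn up with earlier results of these data known, and the rule itself uses no measured value. They comprise 5 regulators, 7 genes of fatty acid uptake and activation, 5 of the carnitine shuttle, 7 acyl-CoA dehydrogenases, 7 genes for the steps from hydration to thiolysis, 3 of electron transfer, and 4 thioesterase and ketone body genes. Kidneys came from male wild-type C57BL/6J mice that had been purchased at 7 weeks of age and acclimatized for 1 week. The day-0 group held 3 mice labelled as control with 20% PEG, and the day-21 group held 3 mice given adenine at 0.16 g/kg and potassium oxonate at 2.4 g/kg by daily gavage, a model of hyperuricemia-related chronic kidney disease. No allele was altered in either group. The day-21 labels name no vehicle, so time, treatment and vehicle cannot be told apart.

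In each turn of mitochondrial beta-oxidation, a fatty acid bound to coenzyme A is shortened by dehydrogenation, hydration, a further dehydrogenation and thiolysis, and the electrons released pass to the respiratory chain. Long-chain fatty acids must first be activated to acyl-CoA and carried across the inner mitochondrial membrane as carnitine esters, whereas shorter chains can be activated within the matrix. The proximal tubule of the kidney relies heavily on this pathway for the energy of solute transport, and the nuclear receptor PPARα, paired with RXRα, and the coactivator PGC-1α with ERRα are known to drive its genes.

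Library totals ran from 10963849 to 14256556 counts for day 0 and from 12662200 to 14333311 counts for day 21. Levels are given below as CPM, counts relative to library size, scaled between libraries by the trimmed mean of M values (TMM), and a change was called when the Benjamini-Hochberg adjusted p of edgeR's quasi-likelihood test over all 16592 genes tested was under 0.05 and the fold exceeded 1.5. TMM factors were 0.852 to 0.886 on day 0 and 1.12 to 1.17 on day 21, so the choice of scaling bears on every fold change. Mitochondrially encoded genes took 9.39% to 9.86% of counts on day 0 and 3.82% to 4.42% on day 21. In these whole-kidney libraries, fewer cells of a type and less RNA per cell cannot be told apart.

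Expression of the pathway was lower on day 21 at every step tested. Of the 38 members, 35 passed the filter on low counts, with at least 40 counts in every mouse, and the other 3 had at most 15 counts in any mouse. Among the 35, 33 were called lower and 0 higher, where 15.5% of all genes tested were called lower and 19.6% higher. The other 2, Ppargc1a and Acot2, had adjusted p-values under 0.05 with folds under 1.5. All 3 day-21 mice lay below all 3 day-0 mice in 34 of the 35, against 26.4% of all genes tested, and the exception was Ppargc1a. The median log2 fold change was -1.23 over the 35 members and 0.03 over all genes tested. Summed over the 38 members, the day-0 mice held 16202, 18720 and 19761 CPM. In the mice of day 21, 6185, 4992 and 5815 CPM were left. A large part of each sum was Acsm2 and Slc27a2, which together held 8105, 9053 and 9364 CPM on day 0. On day 21 these 2 genes held 2592, 1951 and 2475 CPM. With libraries scaled by their total alone, 26 of the 35 members were called lower, where 8.06% of all genes were called lower and 36.1% higher. The median of all genes then moved up by 0.39 on the log2 scale, and the median of the members was -0.84.

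**Figure D1:**
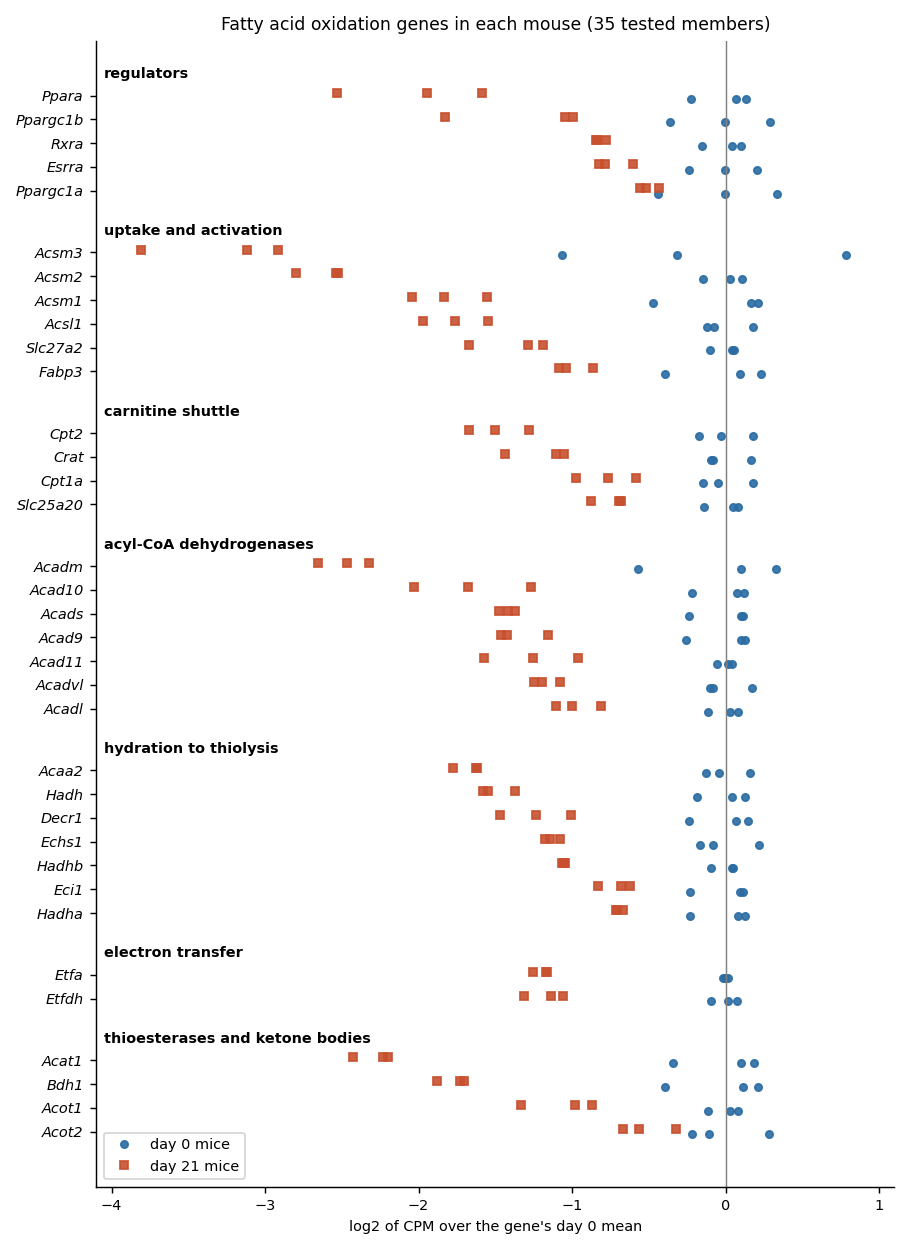
Level of each of the 35 tested members in each mouse, as the log2 of CPM over the gene's day-0 mean (horizontal axis), with the genes on the vertical axis grouped by role; blue circles are the 3 day-0 mice and orange squares the 3 day-21 mice. In 34 genes the squares lie wholly to the left of the circles, and in Ppargc1a they overlap.

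The renal tissue was checked by markers of its cell types. All 12 markers of proximal tubule were called lower, with log2 fold changes from -2.64 for Gatm to -1.34 for Slc4a4 and a median of -1.99, and their summed level was 15702 to 17057 CPM on day 0 and 3275 to 4157 CPM on day 21. Markers of other nephron cells were also lower, with 5 of 6 collecting duct (median log2 fold change -1.38), 4 of 6 thick ascending limb and distal tubule (median -0.95) and 3 of 5 podocyte markers called lower, and 1 distal marker, Cldn16, called higher. Among 6 endothelial markers 2 were called lower. All 6 markers of injured proximal tubule, all 8 of macrophages and all 6 of fibroblasts were called higher. Summed levels of the macrophage markers were 311 to 404 CPM on day 0 and 1643 to 2057 CPM on day 21. Among the tested members, 31 had a log2 fold change above the proximal tubule marker median and 4 below it, namely Acsm3, Acsm2, Acadm and Acat1. When libraries were scaled so that the 12 proximal tubule markers were level, 2 members were called lower and 22 higher, where 0.639% of all genes were called lower and 93.5% higher. The part that loss of proximal tubule RNA or cells plays in the members' fall was not tested.

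The members' levels on day 0 spanned several orders of magnitude when set per base of exon and scaled to a common total in each library (TPM). Slc27a2, which encodes a very long-chain acyl-CoA synthetase and fatty acid transporter, had the highest level at 2312 ± 117 TPM (SD, n = 3). Acsm2, a medium-chain acyl-CoA synthetase of the matrix, followed at 1417 ± 118 TPM. These 2 genes stood apart from the rest by more than their spread.

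Next in order were Acadm at 609 ± 176 TPM and Acat1 at 590 ± 99.6 TPM, whose spreads overlapped. Acadl, Acsm3, Etfa and Acaa2 had mean levels of 377 to 413 TPM that did not separate from each other, and Acsm3 had an SD of 264 TPM. The regulators were lower, from 68.5 ± 5.52 TPM for Rxra to 4.64 ± 1.24 TPM for Ppargc1b. Using the longest transcript in place of all exons left the same 10 genes at the top. On day 21 Slc27a2 and Acsm2 kept ranks 1 and 2, at 1290 ± 202 and 334 ± 31.2 TPM, while Acadm was at rank 8 and Acsm3 at rank 17.

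**Figure D2:**
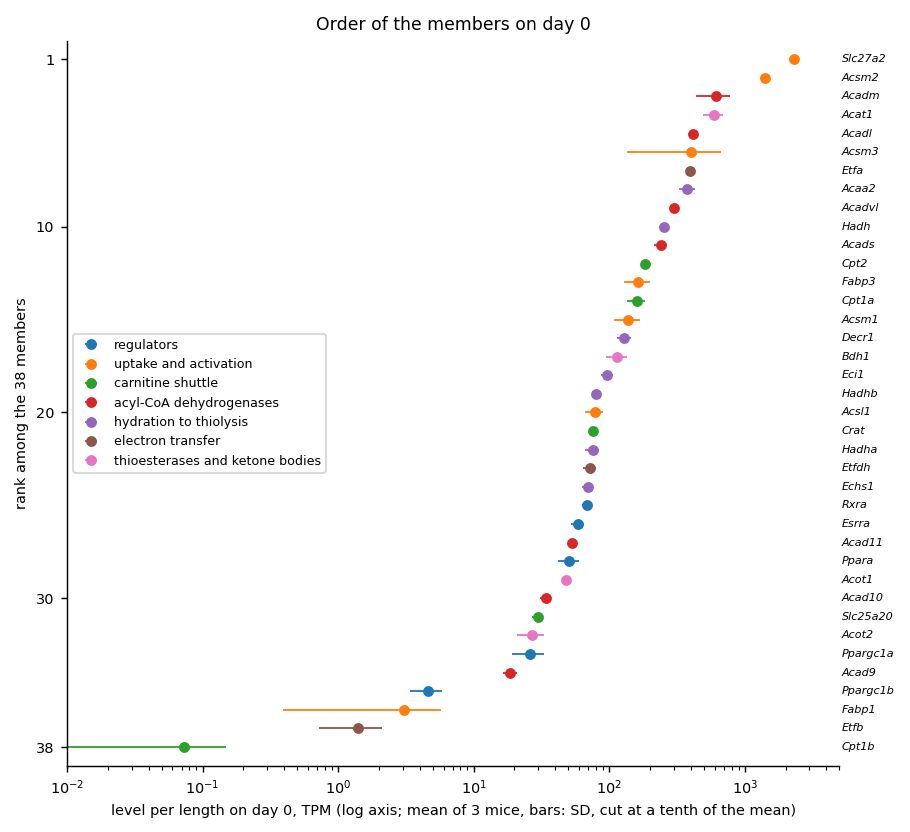
Level per length of the 38 members on day 0 in TPM (horizontal log axis; points are means of 3 mice and bars the SD) against their rank (vertical axis), coloured by role. Slc27a2 and Acsm2 lead, most enzymes lie between 18.7 and 609 TPM, and Fabp1, Etfb and Cpt1b lie at the bottom. The levels of Etfb and Cpt1b are uncertain, because other annotated genes overlap them on the same strand.

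Among the regulators, Ppara (chr15:85734983-85802819, plus strand), which encodes the fatty acid-sensing nuclear receptor PPARα, had levels of 97.4, 76.2 and 93.2 CPM on day 0 and 29.5, 15.4 and 23.1 CPM on day 21. The highest day-21 mouse was well below the lowest day-0 mouse. Ppara fell by 1.97 on the log2 scale (SE 0.21, edgeR adjusted p = 4.2e-05), the largest fall of the 5 regulators. Rxra, its obligate partner, was at 155, 178 and 184 CPM on day 0 and 100.2, 96.3 and 96.0 CPM on day 21, and fell by 0.82 (SE 0.11, edgeR adjusted p = 1.7e-04). The groups were again apart, by less than for Ppara. Esrra, encoding ERRα, fell by 0.73 (SE 0.13, edgeR adjusted p = 0.0013).

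The PGC-1 coactivators stood side by side with unlike separations. Ppargc1a, encoding PGC-1α, was at 58.7, 79.5 and 100.4 CPM on day 0 and at 55.4, 58.8 and 54.1 CPM on day 21. One day-0 mouse lay within the day-21 range, and the log2 fold change of -0.50 (SE 0.17, edgeR adjusted p = 0.034) did not reach a fold of 1.5. The estimate was -0.70 without day-0 mouse 1 and passed both thresholds, and it was -0.32 without day-0 mouse 3 (edgeR adjusted p = 0.11) and passed neither. Leaving out any of the other 4 mice gave edgeR adjusted p-values of 0.066 to 0.10. Ppargc1b, encoding PGC-1β, had the lowest level of the regulators, at 10.3, 6.59 and 8.45 CPM on day 0 and 4.24, 2.39 and 4.10 CPM on day 21. Its groups did not overlap, and it fell by 1.24 (SE 0.29, edgeR adjusted p = 0.0052).

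Fatty acid uptake and activation held the 2 largest falls, those of Acsm3 and Acsm2, with 6 of 6 tested members called lower and a median log2 fold change of -1.77. Slc27a2 (chr2:126552407-126588243, plus strand) was at 3728, 4108 and 4154 CPM on day 0 and at 1750, 1253 and 1639 CPM on day 21, and fell by 1.37 on the log2 scale (SE 0.15, edgeR adjusted p = 5.1e-05). Acsl1, the main long-chain acyl-CoA synthetase, was at 425, 356 and 345 CPM against 128, 95.9 and 110 CPM and fell by 1.75 (SE 0.14, edgeR adjusted p = 8.0e-06). In both genes every day-21 mouse lay under 0.5 of the lowest day-0 mouse. Fabp3, a cytosolic fatty acid-binding protein, fell by 0.99 (SE 0.16), and 29.2% of its 50-base words were shared with the pseudogene Fabp3-ps1, which had at most 7 counts in a mouse.

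The medium-chain acyl-CoA synthetase genes Acsm2, Acsm1 and Acsm3 lie in order on the plus strand of chromosome 7 (GRCm38), at chr7:119554340-119600690, chr7:119607026-119662515 and chr7:119760923-119787513. Acsm2 was at 4378, 4945 and 5210 CPM on day 0 and 842, 697 and 835 CPM on day 21. The mice of each group were close together and the groups far apart, and Acsm2 fell by 2.61 (SE 0.14, edgeR adjusted p = 1.2e-06). Acsm1 was at 101, 162 and 156 CPM against 47.4, 39.2 and 33.8 CPM and fell by 1.80 (SE 0.19).

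Acsm3 had the lowest log2 fold change of the 35 tested members and the widest spread among them on day 0. Its levels were 433, 728 and 1562 CPM on day 0 and 120, 64.7 and 105 CPM on day 21, so the day-0 mice alone differed by more than 3-fold. The coefficient of variation on day 0 was 64.5%, whereas the median over tested members was 12.4%. Acsm3 fell by 3.24 on the log2 scale (SE 0.42, edgeR adjusted p = 1.6e-04), and its log2 fold change was -2.62 without day-0 mouse 3. Exons of Eri2 on the opposite strand cover 39.7% of the exon bases of Acsm3, and the ratio of Eri2 to Acsm3 counts was 0.461 to 0.475 on day 0 and 0.548 to 0.580 on day 21. The strand setting of the counting is not given in the sources used here, so reads in these shared exons cannot be told apart. Eri2 itself had a log2 fold change of -2.98 (edgeR adjusted p = 3.0e-04).

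In the carnitine shuttle, 4 of 4 tested members were called lower, with a median of -0.98. Cpt1a encodes the outer-membrane carnitine palmitoyltransferase that is the regulated entry step for long-chain fatty acids. The gene (chr19:3322334-3385733, plus strand) was at 632, 539 and 504 CPM on day 0 and 373, 284 and 329 CPM on day 21, and fell by 0.76 (SE 0.14, edgeR adjusted p = 0.0012). Cpt2, the inner-membrane enzyme that returns the acyl group to coenzyme A, was at 181, 231 and 199 CPM against 83.8, 63.8 and 71.8 CPM and fell by 1.48 (SE 0.14, edgeR adjusted p = 1.9e-05). The groups were apart in both genes. Slc25a20, the carnitine-acylcarnitine carrier, fell by 0.75 (SE 0.11), and Crat, carnitine acetyltransferase, by 1.19 (SE 0.13).

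Of the acyl-CoA dehydrogenase family, 7 of 7 members were called lower. Acadvl, Acadl, Acadm and Acads encode the enzymes of the first step of each cycle. Acadm, the medium-chain enzyme (chr3:153922357-153944632, minus strand, 12 exons in its longest transcript), was at 742, 1180 and 1381 CPM on day 0 and 220, 175 and 199 CPM on day 21. Day-0 mouse 1 lay below the other two but more than 3-fold above any day-21 mouse. Acadm fell by 2.48 (SE 0.21, edgeR adjusted p = 1.2e-05). The very long-chain enzyme Acadvl was at 346, 418 and 350 CPM against 176, 157 and 162 CPM, and the long-chain enzyme Acadl at 352, 389 and 403 CPM against 217, 177 and 190 CPM. Acadvl fell by 1.17 (SE 0.12, edgeR adjusted p = 2.8e-05) and Acadl by 0.97 (SE 0.12, edgeR adjusted p = 1.0e-04), the smallest falls of the 7. The short-chain enzyme Acads fell by 1.42 (SE 0.12), and Acad9, Acad10 and Acad11 fell by 1.34, 1.63 and 1.24.

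Reads at some of these genes could belong to neighbours or copies. Exons of Dvl2 on the other strand cover 42.9% of Acadvl, and the ratio of Dvl2 to Acadvl counts was 0.571 to 0.586 on day 0 and 0.677 to 0.698 on day 21. Acad10 shares 18.3% of its 50-base words with Acad12. Antisense exons of Gm26697 cover 11.2% of Slc27a2, with a count ratio of 0.332 to 0.361 on day 0 and 0.297 to 0.336 on day 21. For the other dehydrogenases such sharing was at most 13.5% of words.

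**Figure D3:**
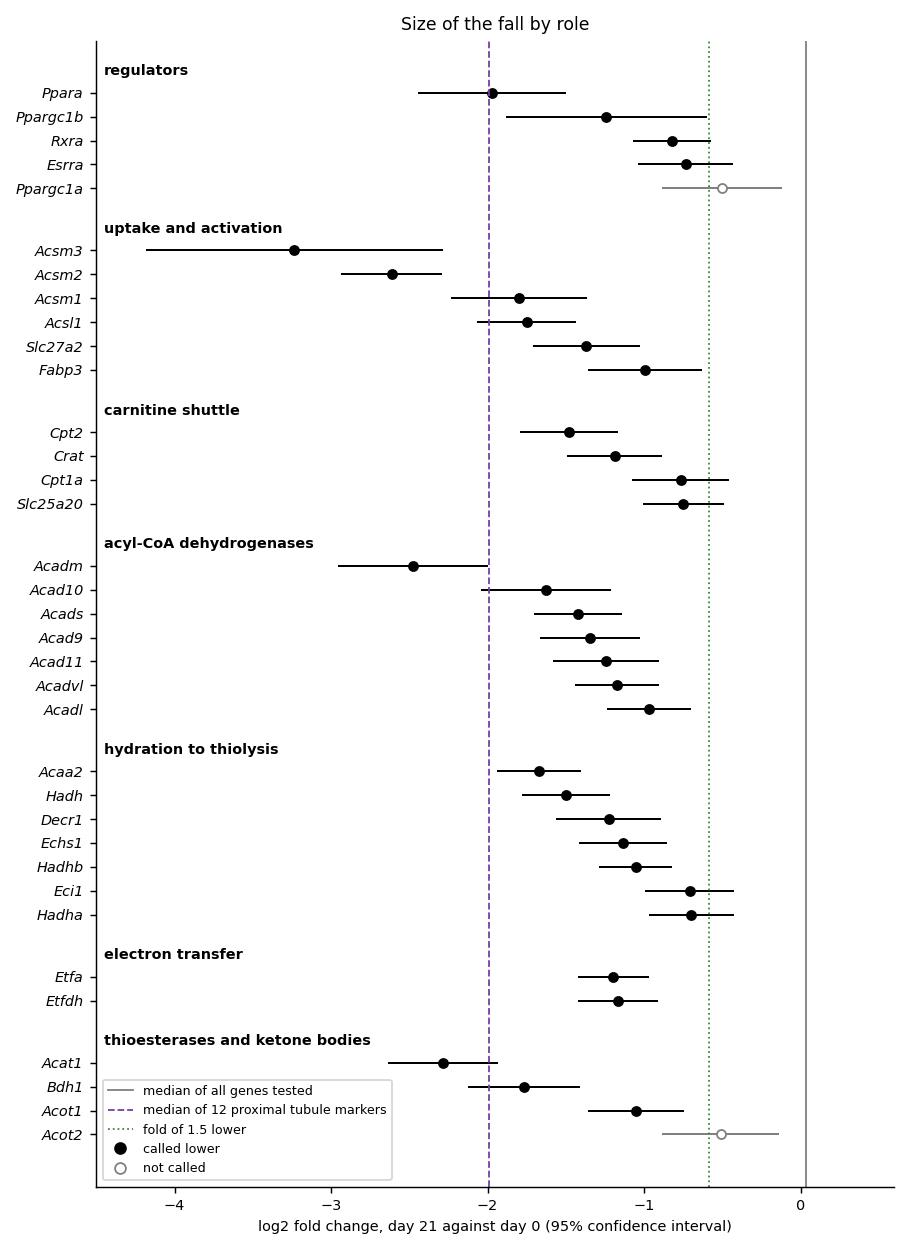
Log2 fold change of the 35 tested members, day 21 against day 0, from edgeR (horizontal axis; points are estimates and bars 95% confidence intervals), grouped by role on the vertical axis, with filled points called lower and open points not called. The dashed line is the median of 12 proximal tubule markers (-1.99), which 31 members lie above, and the solid line the median of all genes tested (0.03).

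For the steps from hydration to thiolysis, 7 of 7 members were called lower, with a median of -1.13. Hadha and Hadhb encode the subunits α and β of the mitochondrial trifunctional protein, which handles long chains. Hadha was at 322, 332 and 260 CPM on day 0 and 186, 186 and 191 CPM on day 21, and fell by 0.70 (SE 0.12, edgeR adjusted p = 9.0e-04). Hadhb was at 249, 249 and 225 CPM against 116, 115 and 117 CPM and fell by 1.05 (SE 0.10, edgeR adjusted p = 2.2e-05). The day-21 mice were nearly level with each other in both genes, and no mouse of one group reached the other group.

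The Hadha and Hadhb genes are transcribed away from each other on chromosome 5, and their annotated starts leave a gap of 85 bases at chr5:30155163-30155247 (GRCm38.p6). The sequence is shown because both subunit genes start at its edges. It is written 5′ to 3′ on the plus strand, with Hadha to its left on the minus strand and Hadhb to its right, and capitals mark its 9 CpG dinucleotides. G and C make up 69.4% of its bases.
Hadha-Hadhb gap: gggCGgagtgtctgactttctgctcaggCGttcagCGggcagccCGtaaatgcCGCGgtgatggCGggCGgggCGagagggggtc

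Of the other enzymes of these steps, Acaa2, the matrix thiolase for medium chains, was at 292, 254 and 240 CPM on day 0 and 85.4, 76.4 and 85.0 CPM on day 21. It fell by 1.67 (SE 0.12, edgeR adjusted p = 3.8e-06), the largest fall of the 7. Hadh, the medium- and short-chain hydroxyacyl-CoA dehydrogenase, was at 509, 632 and 598 CPM against 224, 194 and 199 CPM and fell by 1.5 (SE 0.12). The groups did not overlap in either gene. Echs1, the short-chain enoyl-CoA hydratase, fell by 1.13 (SE 0.12). Eci1 and Decr1, which handle unsaturated fatty acids, fell by 0.71 (SE 0.12) and 1.23 (SE 0.15).

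Electrons from the dehydrogenases pass through the electron transfer flavoprotein, made of the products of Etfa and Etfb, to the dehydrogenase Etfdh. Etfa was at 328, 335 and 331 CPM on day 0 and 147, 139 and 148 CPM on day 21, the tightest day-0 group of all members (coefficient of variation 1.06%). It fell by 1.20 (SE 0.10, edgeR adjusted p = 9.9e-06), and Etfdh fell by 1.17 (SE 0.11, edgeR adjusted p = 2.3e-05). Both had groups far apart and nearly equal log2 fold changes.

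Etfb, Cpt1b and Fabp1 were the 3 members too low to test. Etfb was counted 11, 9 and 4 times at day 0 against 10, 7 and 8 times at day 21, with a level per length of 1.41 TPM on day 0 beside 393 TPM for its partner Etfa. The annotation places a second gene, Gm45233, over 53.0% of the exon bases of Etfb on the same strand, and 67.3% of the 50-base words of Etfb occur in it. Gm45233 was listed at 0 counts in every mouse. The count of Etfb is therefore uncertain as a measure of its transcript.

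Cpt1b, the muscle form of carnitine palmitoyltransferase, was counted 0, 3 and 1 times at day 0 against 2, 2 and 0 times at day 21. Gm44502 covers 81.4% of its exon bases on the same strand, shares 93.0% of its words and was likewise at 0 counts in every mouse. Fabp1, the liver fatty acid-binding protein, was counted 15, 6 and 3 times at day 0 against 8, 4 and 4 times at day 21, and its exons overlap no other gene. No difference between the days was detectable at these low counts for the 3 untested genes, and the count of Cpt1b is uncertain like that of Etfb.

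Among the thioesterase and ketone body genes, Acat1, the acetoacetyl-CoA thiolase that acts in ketone body and isoleucine metabolism (chr9:53580522-53610382, minus strand), was at 808, 1099 and 1164 CPM on day 0 and 218, 190 and 222 CPM on day 21. It fell by 2.28 (SE 0.16, edgeR adjusted p = 3.2e-06). Bdh1, which interconverts the ketone bodies acetoacetate and 3-hydroxybutyrate, was at 157, 239 and 223 CPM against 56.1, 63.4 and 62.3 CPM and fell by 1.77 (SE 0.16). Every day-21 mouse was under 0.5 of the lowest day-0 mouse for both.

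Acot1 and Acot2 encode cytosolic and mitochondrial acyl-CoA thioesterases and are neighbours on chromosome 12. Acot1 was at 80.2, 88.6 and 92.2 CPM against 47.6, 34.5 and 44.1 CPM and fell by 1.05 (SE 0.13, edgeR adjusted p = 1.4e-04). Acot2 was at 33.2, 25.3 and 23.5 CPM on day 0 and 21.8, 18.5 and 17.2 CPM on day 21. Its groups were just apart, and its log2 fold change of -0.51 (SE 0.16, edgeR adjusted p = 0.028) did not reach a fold of 1.5. It was -0.62 without day-0 mouse 3 and -0.61 without day-21 mouse 1, and then passed, and -0.37 without day-0 mouse 1 (edgeR adjusted p = 0.076), passing neither threshold. Without day-21 mouse 2 or day-21 mouse 3 its adjusted p from edgeR was likewise above 0.05, at 0.082 and 0.11. The 2 genes share 17.6% (Acot1) and 24.5% (Acot2) of their 50-base words, so their counts are uncertain.

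Ratios of counts within a mouse do not depend on the scaling between libraries, and 9 pairs of members were compared by a two-sided exact permutation test over the 6 mice. The smallest p this design allows is 0.1, so no pair could pass 0.05. The log2 ratio of Acadvl to Acadm was -1.53 ± 0.440 (SD, n = 3) on day 0 and -0.26 ± 0.0882 on day 21 (exact permutation p = 0.1, adjusted 0.15). The ratio of Acadm to the short-chain Acads went the other way, from 2.08 ± 0.274 to 1.06 ± 0.196 (exact permutation p = 0.1, adjusted 0.15). Relative to Acadvl and to Acads, then, Acadm was lower in the day-21 mice than in the day-0 mice, with no overlap between groups. Exons of Dvl2 on the other strand cover 42.9% of Acadvl, so reads of Dvl2 may enter the Acadvl count in the first ratio.

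The log2 ratio of Cpt1a to Cpt2 was 1.46 ± 0.308 on day 0 and 2.17 ± 0.0229 on day 21, and that of Hadha to Hadhb was 0.33 ± 0.109 and 0.69 ± 0.0187. For Ppara to Rxra it was -0.96 ± 0.277 and -2.15 ± 0.450, and for Ppargc1a to Ppargc1b 3.21 ± 0.619 and 4.00 ± 0.520. Each of these 4 had no overlap between groups (exact permutation p = 0.1, adjusted 0.15), though for Ppargc1a to Ppargc1b the groups were only just apart, at 3.58 in the highest day-0 mouse and 3.70 in the lowest day-21 mouse. The ratios of Acot1 to Acot2, Etfa to Etfb and Cpt1a to Cpt1b overlapped (exact permutation p = 0.2, 0.3 and 0.7), and the last 2 rest on the low counts of Etfb and Cpt1b.

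**Figure D4:**
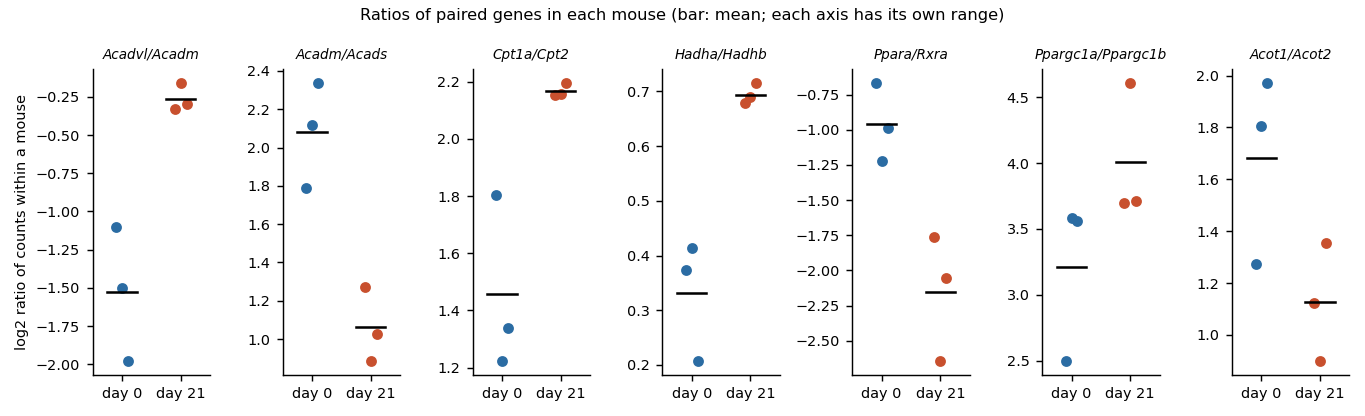
Log2 ratio of counts within each mouse (vertical axes, each with its own range) for 7 pairs of members, with day-0 mice in blue, day-21 mice in orange and bars at the means of 3 mice. The groups are apart in all pairs but Acot1 to Acot2; the 2 pairs with Etfb or Cpt1b are not drawn.

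Day-0 mice differed among themselves in other cells' markers. The summed level of 6 markers of injured proximal tubule was 1676, 780 and 538 CPM in day-0 mice 1, 2 and 3. On day 21 it was 19473 to 23525 CPM. Most of each sum was Spp1 alone, at 1614, 752 and 513 CPM on day 0 and 21207.5, 17712 and 17407 CPM on day 21. Day-0 mouse 1 also had the lowest summed members on day 0. Its sum was the lowest within each role except electron transfer and the carnitine shuttle. For the carnitine shuttle its sum was the highest, at 1059 CPM against 1050 and 941 CPM in day-0 mice 2 and 3. The summed level of 6 adipocyte markers was 0.401, 8.0 and 44.9 CPM at day 0 against 0.537 to 1.70 CPM at day 21, with Adipoq at 51 counts in day-0 mouse 3. Leaving out any 1 of the 6 mice lost no call among the 33 members called lower. The part of these cells in single values was not tested.

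The rest of the pathway was read from lists of genes outside the 38. Of 39 other genes of fatty acid oxidation in the table, 37 were tested, 25 were called lower and 2 higher, with a median of -1.01. Nudt19, a peroxisomal coenzyme A hydrolase, had a log2 fold change of -2.57 (SE 0.23, edgeR adjusted p = 1.4e-05). The 2 called higher were Cpt1c, a brain-type carnitine palmitoyltransferase, at 1.77 (SE 0.27) from only 1.30 to 1.86 CPM on day 0, and the acyl-CoA synthetase Acsl5 at 0.84 (SE 0.13). With TMM scaling Cpt1c was called in the opposite direction to Cpt1a, while Cpt1b gave too few counts for a direction.

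Of 26 other transcriptional and energy regulators, 24 were tested, 12 were called lower and 0 higher, with a median of -0.54. The coregulator gene Perm1 (-2.56, SE 0.35) and the estrogen-related receptor gene Esrrb (-2.12, SE 0.16) had the largest falls. Esrrb was at 63.3, 85.4 and 67.8 CPM against 16.6, 13.8 and 19.4 CPM, with no overlap between groups. With library size alone 7 of the 24 were called lower, where 8.06% of all genes were called lower.

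Targets of PPARα outside mitochondrial oxidation were mostly called lower. Of 21 listed, 18 were tested, 15 were called lower and 1 higher, with a median of -1.58. Cyp4a14, a fatty acid omega-hydroxylase, was at 363, 462 and 320 CPM on day 0 and 78.9, 28.0 and 28.9 CPM on day 21 (log2 fold change -3.08, SE 0.37, edgeR adjusted p = 9.3e-05). The 1 called higher was Ucp2, an inner-membrane carrier, at 0.85 (SE 0.16). Whether the falls of these targets are linked to that of Ppara was not tested.

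For lipid uptake, storage and synthesis, 23 of 24 genes were tested, 9 were called lower and 1 higher, with a median of -0.49. Lpl, the lipoprotein lipase, was at 806, 1075 and 1431 CPM on day 0 and 128, 128 and 135 CPM on day 21 (-3.08, SE 0.20, edgeR adjusted p = 2.4e-06). The monoglyceride lipase Mgll fell by 1.99 (SE 0.21), and the lipid droplet gene Plin3 was called higher at 0.61 (SE 0.13, edgeR adjusted p = 0.0032). No gene of this list was called higher without day-0 mouse 3, with DESeq2 or with scaling by relative log expression. With library size alone 5 of the 23 were called lower and 4 higher, where 8.06% of all genes were called lower and 36.1% higher.

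**Figure D5:**
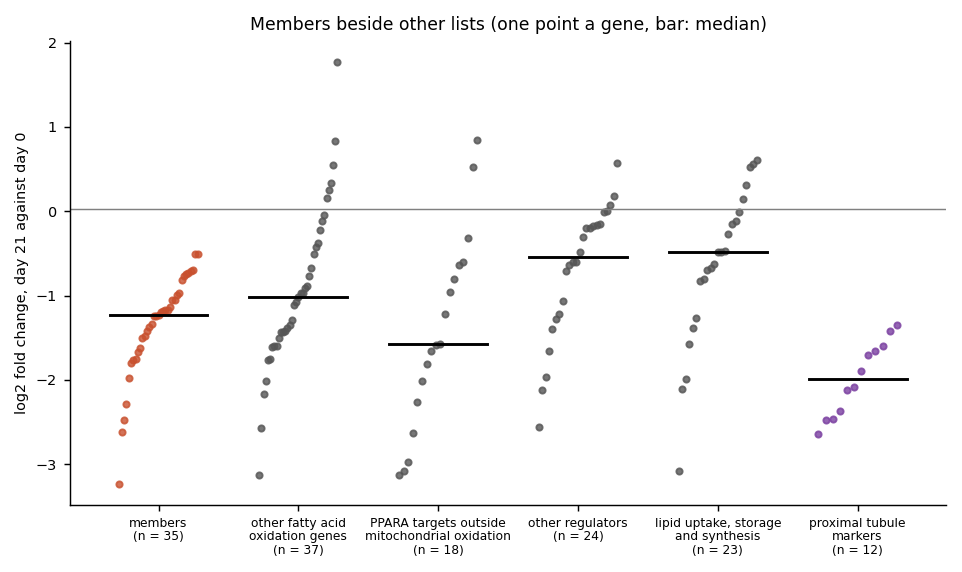
Log2 fold change, day 21 against day 0 (vertical axis), of each tested gene in the members and 5 other lists (horizontal axis; 1 point per gene, black bars at medians, grey line at the median of all genes tested). Medians run from -1.99 in the proximal tubule markers to -0.49 in lipid uptake, storage and synthesis, and only the members and the proximal tubule markers hold no gene above the grey line.

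Promoters of the members were searched on both strands for binding elements of the receptors among the regulators. Of the 38 genes, 31 had a RefSeq promoter (GRCm38.p6, a window of 300 bases that lies mostly before a start site), giving 35 promoters. The letters TNAAGGTCA, an element of estrogen-related receptors, were in 0 of the 35, beside 1.28% of all 32851 promoters. The direct repeat spaced by 1 base that PPARα binds with RXRα was in 1 of the 35, beside 0.381% of all promoters. The 2 patterns were searched separately and may overlap.

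That match is upstream of Fabp1, and the stretch that ends at the annotated start is shown because it holds the only match of this repeat among the 35 promoters. It lies at chr6:71199772-71199826, plus strand, written 5′ to 3′, with the matched bases in capitals, and it ends just before the GENCODE start. The element reads along the minus strand. The RefSeq start lies further downstream, and the first matched base is at -67 from it.
Fabp1 upstream: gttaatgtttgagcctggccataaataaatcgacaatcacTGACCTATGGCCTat
A match of letters is a description of the sequence, and Fabp1 itself was too low to test in these kidneys.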

How the data were processed

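RNA-seq of whole kidney from 3 day-0 and 3 day-21 mice was used. The authors deposited 1 column of raw, unnormalized gene counts per mouse. Per the labels, libraries were paired-end and made with an Illumina TruSeq kit, and the submitters' processing notes name TopHat and mm10. The counting program and its strand setting are not given in the sources used here. Gene symbols, positions and exons came from GENCODE M21 (GRCm38), and promoters from RefSeq (GRCm38.p6).

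Counts were filtered with filterByExpr (minimum count 10, minimum total 15), scaled by TMM and tested with edgeR 4.0.16 (R 4.3.3) by the quasi-likelihood test without a replicate block, with Benjamini-Hochberg adjustment over 16592 genes. The biological coefficient of variation was 16.2%. The members, the gene lists and the tests were chosen with earlier results of these data known. All members are named, and of each other list up to 4 genes, the largest falls and rises among called genes with a mean of at least 50 counts. One item that this rule names is not reported here. The labels give each sample a replicate number and no animal, so p-values measure the spread between these samples. No 2 samples of a group agreed within sampling noise (chi-square per gene at least 7.21). Log2 ratios used a pseudocount of 0.5. Shared words were 50 bases long.

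Same-numbered mice of the 2 groups did not deviate together (correlations -0.019, 0.165 and 0.0896), so the numbers were not taken to pair them. Alternatives were DESeq2 1.42.0, limma-voom (limma 3.58.1), other scalings, filters and thresholds, a replicate block and each mouse left out. Low counts limit what the 3 untested members can show. For Etfb and Cpt1b the counts are also uncertain, because other annotated genes overlap them on the same strand.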

Additional observations from a re-analysis of the deposited data

How the results depend on the processing

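The count of 33 members called lower held under DESeq2, limma-voom, and scaling by relative log expression or upper quartile. It also held under TMM leaving out the 20 highest genes or those encoded by mitochondrial DNA, and under either filter. Each of the 35 tested members kept its call, lower or not called. With the replicate number as a block, 33 were called lower and the median was -1.23. The block changed no call of a member. With library size alone, the median of the members was -0.84, that of all genes 0.42, and Esrra, Rxra, Cpt1a, Slc25a20, Acadl, Hadha and Eci1 were no longer called, with log2 fold changes of -0.58 to -0.31. The counts called lower were then 7 of the other regulators and 5 of the lipid genes, with 1 and 4 higher. In the remaining lists, 4 other oxidation genes and 2 PPARα targets were called higher. Of all genes tested, 8.06% were called lower and 36.1% higher under this scaling. The same counts lower, 7 and 5, were found with stricter thresholds (adjusted p 0.01, fold 2). There, 8 members were lost because the fold threshold was higher. The share of all genes called at the stricter thresholds was not taken, so these counts have no background beside them.

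Scaled to the proximal tubule markers, 2 members (Acsm2 and Acsm3) were called lower and 22 higher, and the median was 0.76. Called lower were then 1 other fatty acid oxidation gene, 0 other regulators, 4 PPARα targets and 1 lipid gene, and 23, 20, 8 and 18 of these lists were called higher. Acadm was at -0.48 and Acat1 at -0.29. The other 31 had log2 fold changes above 0: Ppara 0.018, Ppargc1a 1.49, Ppargc1b 0.75, Esrra 1.26, Rxra 1.17, Slc27a2 0.62, Fabp3 1.00, Acsl1 0.24, Acsm1 0.19, Cpt1a 1.23, Cpt2 0.51, Slc25a20 1.24, Crat 0.80, Acadvl 0.82, Acadl 1.02, Acads 0.57, Acad9 0.65, Acad10 0.36, Acad11 0.75, Hadha 1.29, Hadhb 0.94, Hadh 0.49, Echs1 0.86, Acaa2 0.32, Eci1 1.28, Decr1 0.76, Etfa 0.80, Etfdh 0.83, Acot1 0.94, Acot2 1.48 and Bdh1 0.22. This scaling moves all genes together by its construction, with a median of 2.02 over all genes tested.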
